A study of Mus musculus with 64 samples.

Results

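The EGF family ligands Areg, Ereg, Hbegf, Btc, Tgfa and Nrg1 and the receptors Egfr, Erbb2 and Erbb3 were followed in mouse pancreatic tumor cells grown alone or beside fibroblasts. These 9 genes, taken by symbol from a table of 39017 genes, each had 1 row, and all 9 passed the filter on low counts. The data were RNA sequencing of 8 tumor lines on a mixed C57BL/6 background, with 64 libraries in all. For each line, 4 libraries came from cells grown alone (mono-culture) and 4 from tumor cells that were recovered by GFP after 48 h in direct contact with fibroblasts (coculture). Of the lines, 7 are single clones of a KPC tumor, which carries Trp53 R172H with Pdx1-Cre, so that Cre acts in the pancreatic lineage and both cultures of every clone hold the same alleles. By their metabolism the study assigned E, V and H to group 1 and T, N, M and K to group 2, and the eighth line, KPC1, whose alleles are not given in the sources used here, has no such assignment. The labels name no separate cultures behind the 4 libraries of a line, so p-values within a line measure only the spread between libraries, which may be technical.

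ErbB receptors are tyrosine kinases that pair when a ligand binds and signal to the MAP kinase and PI3 kinase cascades. Areg (amphiregulin), Ereg (epiregulin), Hbegf (heparin-binding EGF-like growth factor), Btc (betacellulin) and Tgfa (transforming growth factor alpha) bind Egfr, while Nrg1 (neuregulin 1) binds Erbb3 and Erbb4. Erbb2 has no ligand of its own and serves as the partner of the others, and Erbb3 has little kinase activity and recruits PI3 kinase. The ligands are made as membrane proteins and are released by ADAM proteases, and in the pancreas Egfr signaling is known to act in the formation of ductal tumors.

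Library totals ranged from 11178721 to 21333683 counts, and every one of the 64 libraries was closest to another of its own line and culture. Levels are given as CPM, the counts divided by the library total after TMM scaling, with the SD over 4 libraries, and comparisons between genes use the RPKM of the authors, which divides by gene length. The epithelial markers Krt8 and Krt18 had line means between 314 and 1644 CPM, whereas Cdh1 ranged from 0.784 to 303 CPM and Epcam was at or below 0.370 CPM. Among markers of other cells, Ptprc (immune), Cdh5 (endothelial) and Ptf1a (acinar) were at or below 0.118, 0.0308 and 0 CPM in every line and culture, but others were present. Cd68, a macrophage lysosomal protein, had line means of 3.91 to 18.5 CPM in mono-culture and 11.8 to 40.5 CPM in coculture and rose across the lines (log2 change 1.37, adjusted p = 0.0108), and its part in the results was not tested. The endothelial marker Kdr reached 7.61 CPM and the acinar marker Prss2 4.06 CPM, both in mono-culture. The summed level of 12 fibroblast markers was 79.8 to 240.4 CPM by line in mono-culture and 634 to 1269 CPM in coculture. Of these 12 markers, 5 (Fap, Thy1, Dcn, Lum and Postn) were at 1 CPM or less in all 8 lines in mono-culture, and 3 of these (Thy1, Dcn and Postn) were above 1 CPM in all 8 lines in coculture. Thy1 had no count in mono-culture and 5.98 to 16.1 CPM in coculture, and the part of fibroblast RNA in the results that follow was not tested. In bulk RNA of this kind, a change in the cells present and a change in the RNA per cell cannot be told apart.

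By mean RPKM, Hbegf was the most abundant of the 6 ligand transcripts in every line and culture except N in coculture. There Areg stood at 54.4 ± 36.8 RPKM and Hbegf at 51.9 ± 17.6 RPKM (SD, n = 4), a difference smaller than the spread. Averaged over the shares in the 4 libraries of a group, Hbegf made up between 37.7% (N) and 87.1% (H) of the summed ligand level in mono-culture and between 38.96% (N) and 79.7% (K) in coculture. The Areg share ran from 0.927% (M) to 30.98% (KPC1) in mono-culture and from 2.54% (M) to 40.7% (KPC1) in coculture. Nrg1 stayed at or below 3.79% throughout. The summed ligand level in mono-culture ran from 32.8 ± 5.58 RPKM in K to 110.3 ± 28.7 RPKM in KPC1 (SD, n = 4). Among the receptors, the RPKM of Erbb3 was the lowest in every line, with line means between 0.377 and 2.36 in mono-culture, beside 8.67 to 21.7 for Egfr and 6.84 to 16.7 for Erbb2.

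**Figure D1:**
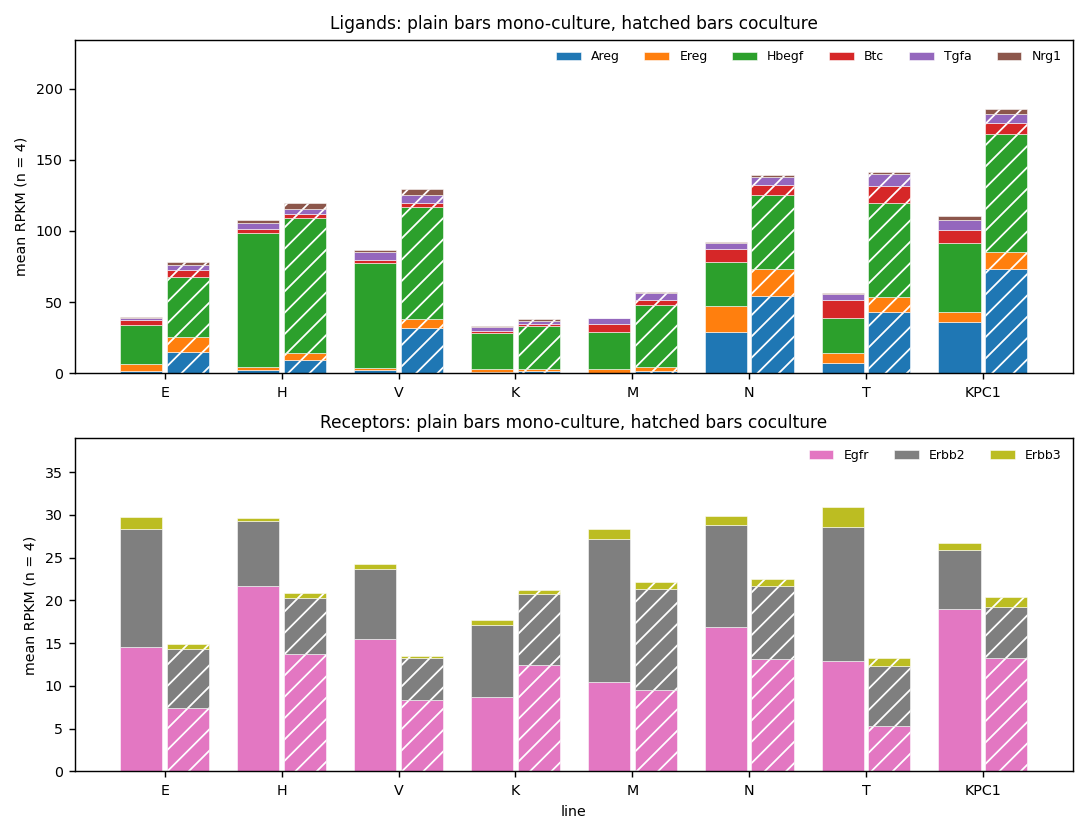
Mean RPKM of the 6 ligands (top) and 3 receptors (bottom) in each of 8 lines, stacked by gene, with plain bars for mono-culture and hatched bars for coculture (n = 4 libraries a bar, no error drawn). Hbegf is the largest ligand segment in every bar except N in coculture, where Areg is. The Areg segment is larger in coculture in all 8 lines, though in K only 1.12 against 1.22 RPKM.

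The lines differed before coculture in all 9 genes. An edgeR quasi-likelihood F test over the 8 mono-culture groups called each of them at an adjusted p under 0.1, a test that called 95.1% of all 14134 genes, with adjusted p between 1.08e-21 for Nrg1 and 1.00e-06 for Egfr. Areg covered the widest range, from 0.439 ± 0.128 CPM in M to 46.3 ± 25.3 CPM in KPC1 (SD, n = 4), a 106-fold span. Its 4 libraries in N held 8.84, 6.74, 51.2 and 78.9 CPM, so that N overlapped both KPC1 above it and T below it, and none of the 7 neighboring pairs of lines in the Areg order was apart. The Nrg1 span was 15.8-fold, from 0.859 ± 0.178 CPM in M to 13.6 ± 4.59 CPM in KPC1, and here H (12.1 ± 0.949) stood clear of V (9.57 ± 1.08), V of E (4.43 ± 1.10), and T (2.60 ± 0.854) of M.

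The other ligands followed different orders of lines. Ereg was highest in N (77.4 ± 38.9 CPM) and lowest in V (6.72 ± 1.18 CPM), and its one gap between neighbors lay between E (19.8) and H (12.9). Hbegf was highest in H (239 ± 16.4 CPM) and next in V (181 ± 16.6 CPM), each apart from the line below, while E, K, M, N and T lay between 61.7 and 73.4 CPM. Btc ranged from 7.84 ± 5.22 CPM in K to 58.4 ± 14.3 CPM in T, and Tgfa from 11.7 ± 1.67 CPM in E to 47.9 ± 6.55 CPM in KPC1. Egfr and Erbb2 spanned less than any ligand: Egfr 2.47-fold, from K (109 ± 28.5 CPM) to H (270.1 ± 14.7 CPM), and Erbb2 2.49-fold, from KPC1 (37.7 ± 1.56 CPM) to M (93.9 ± 6.16 CPM). Erbb3 spanned 5.91-fold, more than Hbegf (3.88) and Tgfa (4.11), and T (15.2 ± 1.57 CPM) stood apart from E (8.78 ± 1.27 CPM), and H was lowest (2.57 ± 0.478 CPM).

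Across the 8 lines, 4 of the 6 ligands were higher and 2 of the 3 receptors were lower in coculture with fibroblasts. Counts were summed over the 4 libraries of each line and culture and tested with edgeR's quasi-likelihood test with the line as a covariate, where 54.6% of 14478 genes passed, 27.2% higher and 27.4% lower. Areg rose by 2.03 ± 0.41 on the log2 scale (SE, adjusted p = 0.00433), Nrg1 by 1.33 ± 0.14 (adjusted p = 0.000383), Ereg by 0.69 ± 0.21 (adjusted p = 0.0230) and Hbegf by 0.56 ± 0.15 (adjusted p = 0.0117). The log2 changes of Egfr and Erbb2 were −0.56 ± 0.17 (adjusted p = 0.0225) and −0.56 ± 0.13 (adjusted p = 0.00711), so that both fell. Tgfa (0.28 ± 0.13, adjusted p = 0.105), Btc (−0.17 ± 0.17, adjusted p = 0.423) and Erbb3 (−0.44 ± 0.23, adjusted p = 0.138) did not pass. The median log2 change of the 9 genes was 0.28, and that of all genes tested was −0.00089. The 6 called genes of 9 stand beside a background of 54.6%, near the same share, so the count alone says nothing particular about the family.

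With the 8 paired differences in mean log2 CPM, an exact permutation test (two-sided, all changes of sign) gave the smallest p it can give, 0.00781, for Areg, Ereg, Nrg1 and Erbb2 (adjusted p = 0.0176 over the 9 such tests). Areg, Ereg and Nrg1 were higher in 8 of 8 lines and Erbb2 was lower in 8 of 8. These counts take the sign alone. For Ereg, the within-line log2 changes in M, K and N were only 0.01, 0.03 and 0.09 (edgeR adjusted p = 0.986, 0.985 and 0.866). The smallest p for Ereg thus rests on the sign of differences close to none. Hbegf was higher in 7 of 8 lines (exact p = 0.0234, adjusted p = 0.0422) and Egfr lower in 7 of 8 (exact p = 0.0312, adjusted p = 0.0469), with K as the line that went the other way for Egfr and H for Hbegf. The exact test was run on the 9 members alone. The share of all genes that keep 1 direction over the lines was not counted, and edgeR called 54.6% of genes across lines.

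**Figure D2:**
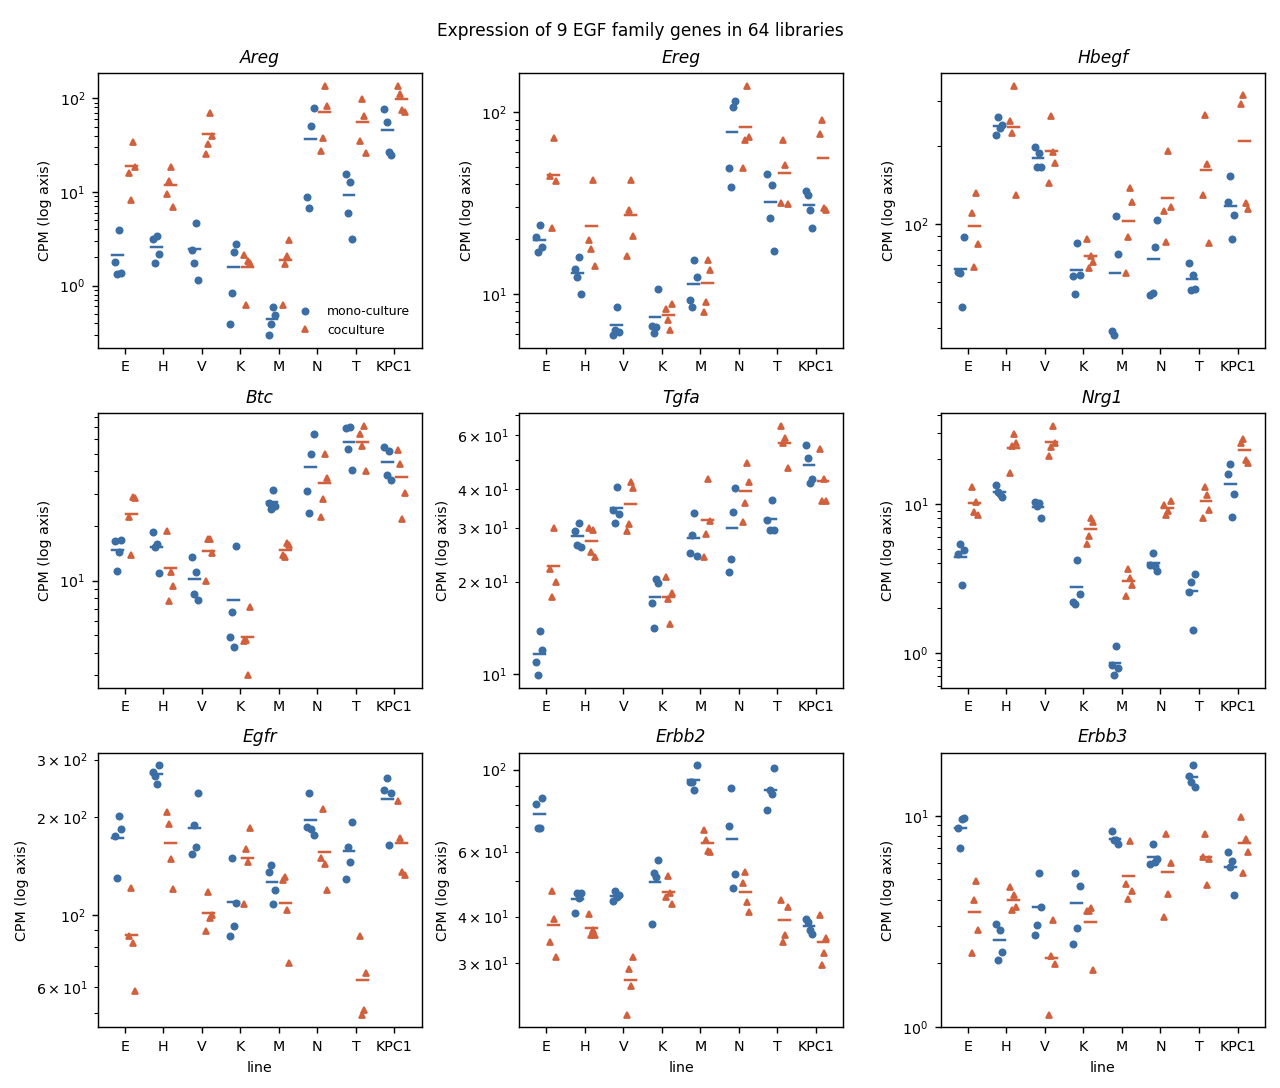
CPM on a log axis for each of the 9 genes in all 64 libraries, by line, with blue circles for mono-culture, orange triangles for coculture and horizontal bars for the mean of 4 libraries. Nrg1 triangles lie above the circles in all 8 lines, whereas Areg in K overlaps between the cultures.

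Areg, the ligand with the largest change, rose in 5 of 8 lines when each line was tested on its own libraries. In V the 4 mono-culture libraries held 2.38, 1.74, 4.61 and 1.16 CPM and the 4 coculture libraries 25.7, 32.5, 69.7 and 39.2 CPM. No coculture value of V was near the mono-culture values, and the log2 change was 4.08 ± 0.62 (adjusted p = 2.49e-07). E (3.15 ± 0.62), T (2.59 ± 0.55) and H (2.17 ± 0.61) followed, and KPC1 rose from the highest starting level, by 1.08 ± 0.51 (adjusted p = 0.0979). The KPC1 call was lost without replicate 2, 3 or 4 (adjusted p of 0.164, 0.213 and 0.205) and in DESeq2 (adjusted p = 0.151). In K the libraries held 0.389, 0.827, 2.28 and 2.78 CPM in mono-culture and 2.13, 0.626, 1.83 and 1.73 CPM in coculture, and the groups overlapped, with a log2 change of 0.03 ± 0.81 (adjusted p = 0.994). M moved from 0.439 ± 0.128 to 1.87 ± 1.01 CPM, which missed the threshold (adjusted p = 0.104) at counts between 5 and 9 a library in mono-culture. In N the difference of 0.97 ± 0.51 did not pass (adjusted p = 0.148), although without replicate 4 it did (1.60, adjusted p = 0.045).

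Ereg, which lies beside Areg, rose in 4 lines. The largest change was again in V, where libraries held 5.91, 6.30, 8.48 and 6.19 CPM in mono-culture and 16.04, 28.8, 42.3 and 20.7 CPM in coculture (2.00 ± 0.39, adjusted p = 2.05e-05), with no overlap. E (1.18 ± 0.36), H (0.86 ± 0.37) and KPC1 (0.86 ± 0.36) also rose, and the log2 differences of K, M and N were between 0.01 and 0.09. Over the 8 lines, the log2 responses of Areg and Ereg had a correlation of 0.84 and their levels one of 0.78 in mono-culture and 0.92 in coculture. These coefficients are over 8 lines and the same libraries carry both genes, so they are given as a description. The responses of Btc had coefficients of 0.77 with those of Areg and 0.81 with those of Ereg.

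Ereg, Areg and Btc lie close together on mouse chromosome 5, with the ligand gene Epgn, in a span of 375.531 kb (GRCm38, GENCODE M21). Epgn occupies chr5:91027464-91035215, Ereg chr5:91074622-91093646 and Areg chr5:91139599-91148432, all on the plus strand, and Btc chr5:91357261-91402994 on the minus strand. Areg and Ereg rose across the lines, Btc did not pass the test, and Epgn was at or below 0.427 CPM in every line and culture. The remaining members are dispersed, with Egfr at chr11:16752203-16918158 (plus strand), Erbb2 at chr11:98412470-98437716 (plus), Tgfa at chr6:86195223-86275719 (plus), Nrg1 at chr8:31814551-32884029 (minus) and Erbb3 at chr10:128567523-128589652 (minus).

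Promoter sequences of RefSeq (GRCm38.p6) matched 5 of the 9 genes: Areg, Btc, Tgfa, Egfr and Erbb2. The 250 bases before the start are shown for Areg, the ligand that rose most, and for Egfr and Erbb2, the receptors that fell, so that the promoters of genes moving in opposite directions can be read side by side. Capitals mark matches, on either strand, to the CREB half-site (TGACG), SP1 (GGGCGG), ETS (CCGGAAG) or TEAD (GGAATG) motif.
Areg, chr5:91139349-91139598, plus strand: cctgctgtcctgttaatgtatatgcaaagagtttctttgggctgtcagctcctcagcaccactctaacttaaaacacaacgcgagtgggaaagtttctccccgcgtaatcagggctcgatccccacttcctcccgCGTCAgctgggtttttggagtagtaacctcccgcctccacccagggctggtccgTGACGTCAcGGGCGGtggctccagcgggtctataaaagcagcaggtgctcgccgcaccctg
Egfr, chr11:16751953-16752202, plus strand: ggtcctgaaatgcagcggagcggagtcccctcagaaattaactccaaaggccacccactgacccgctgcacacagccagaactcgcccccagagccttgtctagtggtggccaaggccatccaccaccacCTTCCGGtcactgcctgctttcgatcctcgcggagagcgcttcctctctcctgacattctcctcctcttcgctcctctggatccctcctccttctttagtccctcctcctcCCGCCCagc
Erbb2, chr11:98412234-98412483, plus strand: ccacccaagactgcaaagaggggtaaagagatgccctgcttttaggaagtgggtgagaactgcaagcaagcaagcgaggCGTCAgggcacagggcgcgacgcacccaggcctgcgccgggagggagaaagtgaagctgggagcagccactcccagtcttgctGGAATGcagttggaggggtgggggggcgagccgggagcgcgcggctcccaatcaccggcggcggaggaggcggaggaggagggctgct

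The Areg window held a CREB half-site on each strand that overlapped the other, beginning 61 and 58 bases before the start, with a further one at 115 bases and an SP1 motif at 52 bases. A CREB half-site was found in 3 of the 5 windows (Areg, Btc and Erbb2) and in 17.8% of 32851 promoters, and an SP1 motif in 3 of 5 (Areg, Tgfa and Egfr) and 32.7% of all. ETS matched Egfr alone, at 120 bases (6.91% of all promoters), and TEAD matched Erbb2 alone, at 88 bases (12.6%). The AP-1 motif (TGANTCA, 6.75% of all promoters) was searched and these letters were in none of the 5 windows. Such matches are descriptions of sequence and were not tied to binding in these data.

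Nrg1, the ligand of Erbb3, was the one member called higher in each of the 8 lines on its own libraries. By line, between 12.5% (K) and 32.1% (E) of all genes were called higher, and the share higher in all 8 lines was not counted. Of 11 tested fibroblast markers, between 8 and 10 were called higher in each line. Their part in the Nrg1 level was not tested. The log2 changes of Nrg1 ran from 0.75 ± 0.20 in KPC1 (adjusted p = 0.00363) to 2.00 ± 0.23 in T (adjusted p = 3.08e-10). In T the libraries held 2.57, 3.01, 1.42 and 3.39 CPM in mono-culture and 8.08, 13.1, 11.6 and 9.15 CPM in coculture. The narrowest separation was in KPC1, where mono-culture libraries held 15.9, 18.6, 8.20 and 11.7 CPM and coculture libraries 25.9, 27.4, 19.7 and 18.8 CPM, and even there the groups did not overlap. M, the line with the lowest starting level, went from 0.859 ± 0.178 to 3.02 ± 0.526 CPM (1.80 ± 0.29). In the ranking by coculture level, V (26.2 ± 5.39 CPM) and H (23.99 ± 5.52 CPM) overlapped at the top and M remained apart at the bottom.

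Hbegf, Tgfa and Btc changed in fewer lines. Hbegf rose in 4 lines (M, N, T and KPC1), with the largest change in T, where libraries held 70.9, 55.9, 63.8 and 56.2 CPM in mono-culture and 130.0, 263, 171 and 84.6 CPM in coculture (1.39 ± 0.31, adjusted p = 0.000154). In H and V, where Hbegf began highest, the log2 differences were −0.01 and 0.09. Tgfa rose in E (0.94 ± 0.18), T (0.83 ± 0.17) and N (0.41 ± 0.17), and in T its libraries moved from 31.7, 29.6, 36.96 and 29.5 CPM to 64.6, 56.7, 58.95 and 47.1 CPM without overlap. Btc rose in E (0.66 ± 0.30, adjusted p = 0.0590) and fell in M (−0.88 ± 0.30, adjusted p = 0.0220). The M libraries held 26.8, 24.9, 31.5 and 25.9 CPM of Btc in mono-culture and 13.9, 13.5, 16.1 and 15.8 CPM in coculture, with no overlap.

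The receptors moved mostly downward. Egfr fell in 5 lines (E, H, V, T and KPC1), and Erbb2 in 5 (E, V, M, N and T). In T the libraries held 129, 161, 145 and 193 CPM of Egfr in mono-culture and 85.98, 49.4, 51.3 and 66.3 CPM in coculture (−1.31 ± 0.21, adjusted p = 5.92e-07), and every coculture library was below every mono-culture library. Erbb2 in T went from 77.6, 88.2, 86.1 and 101 CPM to 44.2, 34.1, 35.7 and 42.5 CPM (−1.17 ± 0.13, adjusted p = 1.09e-10), and the groups were again apart. In K, Egfr libraries held 86.3, 149.8, 92.8 and 109 CPM in mono-culture and 108, 159, 146 and 184 CPM in coculture, a log2 difference of 0.45 ± 0.21 with overlap (adjusted p = 0.141). Erbb3 fell in E, V, M and T but rose in H. The E libraries held 8.74, 7.001, 9.61 and 9.78 CPM of Erbb3 in mono-culture and 2.24, 3.97, 4.89 and 2.86 CPM in coculture (−1.33 ± 0.25, adjusted p = 1.50e-05), and those of H held 3.08, 2.08, 2.86 and 2.26 and 4.59, 3.58, 4.19 and 3.68 CPM (0.63 ± 0.27, adjusted p = 0.0575). Both separations were complete, in opposite directions, although the call in H was lost without replicate 2 (adjusted p = 0.130) or replicate 4 (adjusted p = 0.183).

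**Figure D3:**
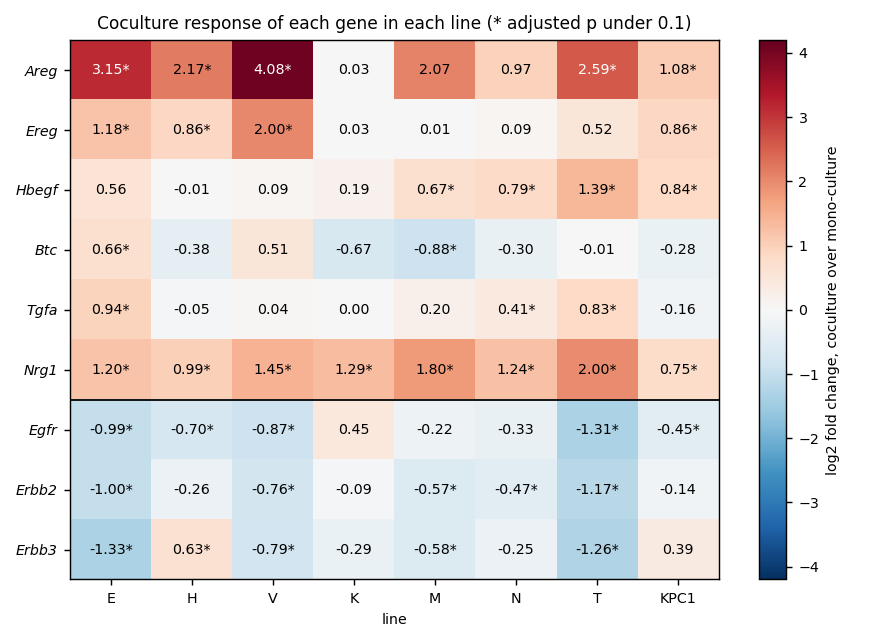
Log2 change in coculture over mono-culture for 9 genes (rows, ligands above the line and receptors below) in 8 lines (columns), colored from blue for lower to red for higher, with an asterisk where the adjusted p was under 0.1. Ligand rows hold 25 of the 26 higher calls and receptor rows hold 14 of the 15 lower calls. By line, 12.5% (K) to 32.1% (E) of all genes were called higher and 8.02% (K) to 31.5% (V) lower.

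Over the 72 pairs of line and gene, 26 were higher, 15 lower and 31 not called. Ligands gave 25 higher and 1 lower of 48 pairs, and receptors 1 higher and 14 lower of 24. By line, the counts higher and lower were 5 and 3 in E (32.1% and 29.2% of all 14134 genes were called in these directions), 4 and 1 in H (21.4% and 22.6%), 3 and 3 in V (30% and 31.5%) and 1 and 0 in K (12.5% and 8.02%). They were 2 and 3 in M (21.6% and 17.3%), 3 and 1 in N (20% and 17.4%), 4 and 3 in T (31.5% and 30.7%) and 4 and 1 in KPC1 (20.1% and 19%). K had the fewest called members and also the lowest share of all genes called, and Nrg1 was its single call. When replicate numbers were left out in turn, 30 of the 41 calls held each time, and the 11 others were Btc in E, Ereg and Erbb3 in H, Hbegf and Erbb3 in M, Hbegf and Tgfa in N, and Areg, Ereg, Hbegf and Egfr in KPC1. The same 4 KPC1 calls were lost with the sample sheet, inferred from sample numbers, as a covariate (adjusted p of 0.194, 0.233, 0.118 and 0.146). By this inference, 1 mono-culture and 3 coculture libraries of KPC1 lay on sheet A and the others on sheet B.

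The size of the response differed between lines for each of the 9 genes in an F test of the line-by-culture interaction, which called 71.3% of all genes. The adjusted p was smallest for Erbb2 (1.40e-06), Erbb3 (1.27e-05) and Egfr (4.50e-05) and largest for Hbegf (0.0606). Hbegf lost this call without replicate 1 (adjusted p = 0.178) or replicate 2 (0.278), Nrg1 without replicate 2 (0.172) and Btc without replicate 3 (0.136). Between these, Tgfa gave 0.000197, Areg 0.00214, Ereg 0.0112, Nrg1 0.0114 and Btc 0.0180. The direction of Nrg1 was the same in all lines, and its log2 change ran from 0.75 to 2.00.

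Group 1 was set against group 2 on sums per clone, 3 clones against 4, and no member passed. In mono-culture 0% of 14829 genes passed in edgeR, with 766 genes (5.17%) and 2 members (Hbegf and Nrg1) at an unadjusted p under 0.05. DESeq2 called 117 genes and no member. Nrg1 was higher in group 1 by 1.76 ± 0.56 (adjusted p = 0.888) on the log2 scale, and the group 1 means (4.43 in E, 9.57 in V and 12.1 in H) all exceeded those of group 2 (0.859 in M, 2.60 in T, 2.77 in K and 3.99 CPM in N). The Hbegf difference was 1.28 ± 0.38 (adjusted p = 0.888), and without clone E it reached an adjusted p of 0.0496. In coculture 0.00679% of 14737 genes passed. In edgeR, 8.57% of all genes and 2 members (Nrg1 and Erbb2) had an unadjusted p under 0.05, while DESeq2 called 193 genes and no member. For the difference in response, 0.00637% of 15700 genes passed, and 7.62% of all genes had an unadjusted p under 0.05. The 2 members among the latter were Ereg, at 1.14 ± 0.29 (adjusted p = 0.569), and Areg, at 1.68 ± 0.68 (adjusted p = 0.656). The Ereg responses of group 1 (0.86, 1.18 and 2.00 in H, E and V) all lay above those of group 2 (0.01, 0.03, 0.09 and 0.52 in M, K, N and T). Neither this difference nor that of Nrg1 in mono-culture passed. How many of all genes separated the groups in this way was not counted.

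The level of fibroblast markers in the coculture libraries differed between lines and is given beside the responses. The 12 markers summed to 634 ± 239 CPM in E and 704 ± 448 CPM in V, the lines with the largest Areg changes. They summed to 1244 ± 463 CPM in N and 1269 ± 627 CPM in K, the lines with the smallest (SD, n = 4). In KPC1 the sum was near that of V, at 728 ± 286 CPM, but the Areg change was 1.08, near the 0.97 of N. T, M and H had sums of 949, 966 and 989 CPM and Areg changes of 2.59, 2.07 and 2.17. The sum includes markers present in mono-culture, where it reached 240.4 CPM (N). Thy1, which had no count in mono-culture, gave another order of lines. It was lowest in K (6.12 CPM) and M (6.90), then E (7.59) and V (10.7), and between 14.5 and 16.1 CPM in N, H, T and KPC1. Coefficients with Thy1 alone were not computed. Over the 8 lines, the log2 response was set against the mean log2 of the sum of the 12 markers, not against the CPM means above. Its correlation with that value was −0.70 for Areg, −0.83 for Ereg, −0.70 for Btc, 0.53 for Egfr and 0.40 for Erbb2. It was between −0.08 and 0.29 for Tgfa, Hbegf, Nrg1 and Erbb3. Among the 32 coculture libraries, after the mean of each line was removed, the coefficients were 0.40 for Erbb3, 0.36 for Tgfa, 0.26 for Erbb2 and 0.23 for Areg, and between −0.12 and 0.14 for Hbegf, Egfr, Ereg, Btc and Nrg1.

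**Figure D4:**
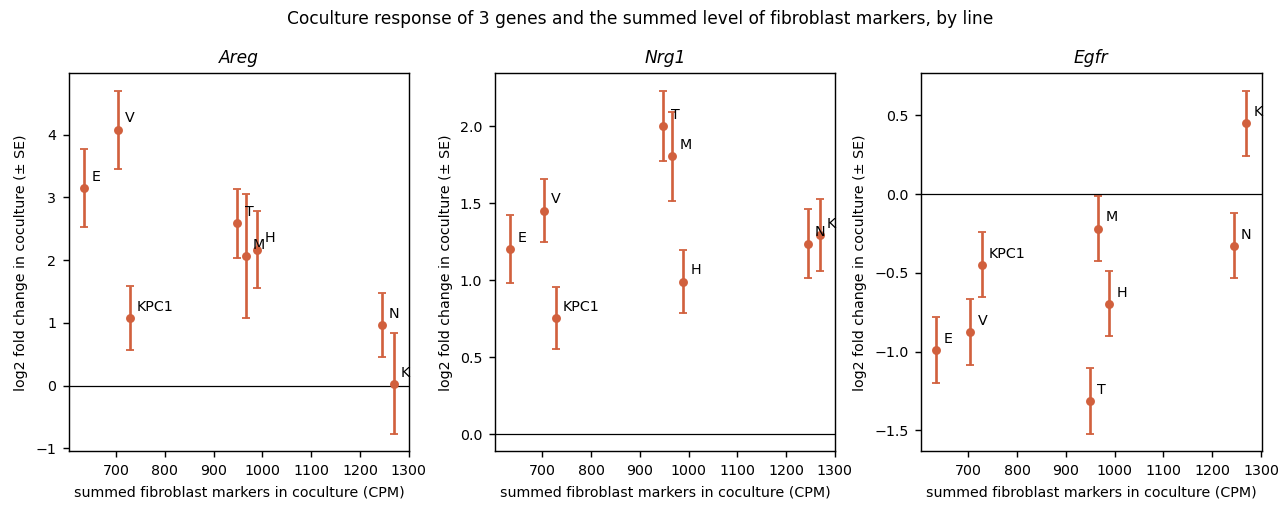
Log2 change in coculture (± SE) of Areg, Nrg1 and Egfr in each line (y axes) against the mean summed CPM of 12 fibroblast markers in its coculture libraries (x axes). Areg is highest in V and E, at sums of 704 and 634 CPM, and near 0 in K at 1269 CPM. In KPC1, at 728 CPM, Areg is at 1.08, near N (0.97) at 1244 CPM, while Nrg1 is above 0 at every sum. The sum includes markers present in mono-culture, and Thy1, absent there, was lowest in K (6.12 CPM).

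Among the other ligands, Egf, Epgn, Nrg2 and Nrg4 were tested across the lines and none passed, with 0 at an unadjusted p under 0.05 in edgeR's across-line test, and Nrg3 and the fourth receptor Erbb4 did not pass the filter on low counts. Within lines, Nrg2, a further neuregulin, fell in V from 2.79 ± 0.994 to 0.819 ± 0.375 CPM, a log2 change of −1.76 ± 0.38 (adjusted p = 9.97e-05). It also fell in H, at −0.87 ± 0.36 (adjusted p = 0.0535), and rose in K, at 2.30 ± 0.72 (adjusted p = 0.0211), and N, at 1.34 ± 0.63 (adjusted p = 0.0992), the last 2 from means of 0.0664 and 0.152 CPM. Nrg4 fell in H, at −1.29 ± 0.42 (adjusted p = 0.0132), and KPC1, at −1.32 ± 0.60 (adjusted p = 0.0829), and Egf was called in no line. Of 7 genes of ligand shedding, 4 rose and 1 fell, beside 27.2% of all genes higher and 27.4% lower in the same test, and one of the 4, Adam19, passed the filter through its coculture counts alone. Adam9 rose by 0.34 ± 0.07 (adjusted p = 0.00529) and Adam10, a sheddase of Btc, fell by 0.44 ± 0.11 (adjusted p = 0.0100). Adam17, the main sheddase of Areg and Tgfa, rose by 0.17 ± 0.06 (adjusted p = 0.0355) and Rhbdf2, which carries Adam17 to the cell surface, by 0.27 ± 0.10 (adjusted p = 0.0547). Adam19 had no count in mono-culture and between 1.92 (M) and 4.83 (H) CPM in coculture, at least 41.2-fold higher in M and 101-fold higher in H against a floor of 3 counts over the 4 libraries of a line. The fibroblast marker Thy1 likewise had no count in mono-culture, and the part of fibroblast RNA in the Adam19 level was not tested.

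Downstream of the receptors, 1 of 6 adaptor genes rose and 3 fell, again beside 54.6% of all genes called in either direction. Gab1, a docking protein of Egfr and Met, had a log2 change of −0.86 ± 0.17 (adjusted p = 0.00400), the adaptor Shc1 one of −0.43 ± 0.09 (adjusted p = 0.00464) and Grb2 one of 0.17 ± 0.06 (adjusted p = 0.0480). Of 10 genes listed as attenuators of the receptors, 1 rose and 3 fell, and what each does to the receptors was not tested. They included the receptor-type phosphatase Ptprj at −0.77 ± 0.16 (adjusted p = 0.00532), Lrig2 at −0.39 ± 0.14 (adjusted p = 0.0476) and Lrig3 at 0.28 ± 0.10 (adjusted p = 0.0471). Of 9 transcriptional targets of the ERK cascade, 1 rose and 2 fell. Fosl1, an AP-1 subunit, rose by 1.14 ± 0.16 (adjusted p = 0.00134), whereas the immediate-early factor Egr1 (−0.55 ± 0.15 (adjusted p = 0.0158)) and the ERK phosphatase Dusp6 (−0.37 ± 0.11 (adjusted p = 0.0206)) fell. Spry2, Spry4, Etv4, Etv5, Phlda1 and Ier3 did not pass. The median log2 change was 0.17 over the shedding genes, −0.10 over the adaptors, −0.07 over the attenuators and −0.03 over the targets, beside −0.00089 over all genes.

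**Figure D5:**
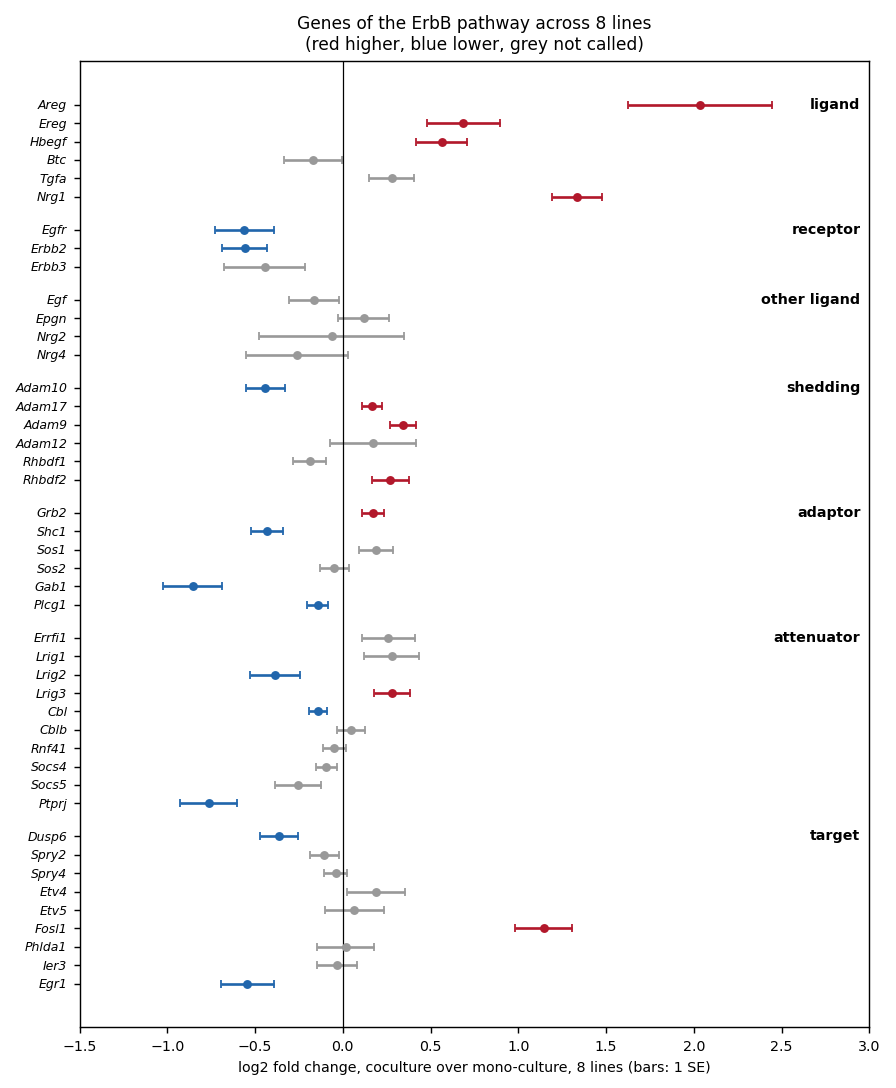
Log2 change in coculture across 8 lines (x axis, bars of 1 SE) for the 9 EGF family genes and the other tested genes of the pathway by role, in red where higher, blue where lower and gray where the adjusted p was 0.1 or more. Areg, Nrg1 and Fosl1 are the points beyond 1, and Adam19, without counts in mono-culture, is not drawn.

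For each member, the tested genes with the most similar levels over the 16 groups of line and culture were listed, as a description over the same libraries. For Areg they were Ghitm (r = 0.97) and Hyou1 (r = 0.97), for Ereg Mcfd2 (r = 0.97) and Aldh1l2 (r = 0.95) and for Nrg1 Gm26578 (r = 0.99) and Eif2s1 (r = 0.96). Tgfa was closest to Sox9 (r = 0.91) and Nkiras1 (r = 0.89), Hbegf to Dlgap1 (r = 0.95) and Nmt1 (r = 0.94) and Btc to Actr8 (r = 0.93) and Slc12a1 (r = 0.92). Among the receptors, Erbb2 was closest to Pdx1 (r = 0.96) and Gm27033 (r = 0.96), Egfr to Dynlt1b (r = 0.90) and Lbp (r = 0.83) and Erbb3 to Nr1h4 (r = 0.90) and Per2 (r = 0.87). Pdx1, whose promoter drives Cre in these tumors, and Sox9 are transcription factors of the pancreatic lineage.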

How the data were processed

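RNA sequencing of 64 libraries from 8 lines, in mono-culture or after 48 h of coculture, was analysed. The labels describe strand-specific polyA libraries, and do not say whether mono-cultures were sorted. The authors deposited raw read counts for 39017 genes, and deposited RPKM values for 49585 genes in a second table. The submitters' processing notes name featureCounts, edgeR and mm10; the aligner and annotation are not given in the sources used here. All 64 columns were mapped by title, and the libraries of a group differed by more than counting noise (chi-square per gene 4.21 to 60.4 over 96 pairs).

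Counts were scaled by TMM and filtered by filterByExpr in edgeR 4.0.16 (R 4.3.3). The coculture response was tested on 16 sums of 4 libraries with line as a covariate, and within lines on the 64 libraries in 16 groups, all by quasi-likelihood tests with Benjamini-Hochberg adjustment over all genes tested and the study's threshold of 0.1. Groups 1 and 2 follow the study's assignment of the clones named in the labels and were compared on sums of 4 libraries per clone. Floors of 3 counts cover counting error only. SE was derived from the log2 change and F and is approximate. CPM use TMM-scaled totals, and log2 CPM a prior count of 0.5. DESeq2 1.42.0 and limma 3.58.1 on log2(RPKM + 1) and log2(RPKM + 0.1) were alternatives, with RLE scaling, other filters, a threshold of 0.05, lines, clones or replicate numbers left out, replicate blocks and the sample sheet, inferred from sample numbers (43 libraries on A and 21 on B). Named genes were the 9 members, the 3 called pathway genes with the largest changes in each role, the markers at 1 CPM or less in mono-culture and the 2 most similar genes for each member; Adam17, Rhbdf2 and Nrg4 and the remaining pathway genes and markers were named after their values were seen. A further allele of the clones is not reported here. Members and lists were chosen with earlier results of these data known. On simulated data with 14391 genes, the test across lines recovered 94% of 200 genes changed by 1 on the log2 scale, and 9.18% of its calls were false. There the change was the same in every line. The test of the difference in response recovered 71.5% of 200 genes changed in E alone, with 10.1% of calls false. For group 1 against group 2 in mono-culture it was 65% at a change of 2, with 14.5% false.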

Additional observations from a re-analysis of the deposited data

Results flagged for a closer look

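Of 171 groups of values examined for a single outlying value, 4 were flagged, and chance flags about 1 in 20 groups, which would be 8.55. In K mono-culture, replicate 4 held 10.6 CPM of Ereg beside 6.06 to 6.67 in the others, a gap of 0.866 of the range. In V mono-culture, replicate 3 held 8.48 CPM of Ereg beside 5.91 to 6.30, a gap of 0.846. In K coculture, replicate 4 held 1.86 CPM of Erbb3 beside 3.53 to 3.67, a gap of 0.925. Among the 8 line means of Ereg in mono-culture, N stood at 77.4 CPM beside 6.72 to 32.1, a gap of 0.641.

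The coculture response differed between the 8 lines for all 9 genes in edgeR's F test of the interaction. The adjusted p was 0.00214 for Areg, 0.0112 for Ereg, 0.0606 for Hbegf, 0.0180 for Btc, 0.000197 for Tgfa and 0.0114 for Nrg1. For the receptors it was 4.50e-05 for Egfr, 1.40e-06 for Erbb2 and 1.27e-05 for Erbb3. Of all genes, 71.3% passed the same test.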

How the results depend on the processing

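Of 178 counts of members called that were recomputed under an alternative, 177 stayed within 1.5 times the count reported. The exception was group 1 against group 2 in mono-culture, where the count of members higher ran from 0 to 1 as clones and replicates were left out, the 1 being Hbegf without clone E. Across the lines, none of the 6 called members lost its call or changed sign under the 21 alternatives. Tgfa passed with DESeq2 (adjusted p = 0.0802), without H, K or KPC1 and with libraries in place of sums, and Erbb3 without H or KPC1 and with libraries in place of sums. The fit on libraries counts those of a line as replicates of the culture effect, so its p-values do not measure the spread between lines. Within lines, 29 of 41 calls held under every alternative and no value called in either fit changed sign. With DESeq2, Areg in KPC1 lost its call (adjusted p = 0.151) and Areg in M gained one (0.00820). With the inferred sample sheet as a covariate, the pairs called were 24 higher and 15 lower. Areg, Ereg, Hbegf and Egfr in KPC1 were lost, and Btc in V (adjusted p = 0.0558) and K (0.0658) was gained. All 4 K mono-culture libraries lay on sheet B, so sheet A alone gave values for E, H, V, M, N and T only (21 higher and 12 lower, against 21 and 14).

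Same-numbered libraries did not deviate together throughout (r from −0.069 to 0.291, over 0.1 in 18 of 32 pairs), so they share a number and no stated origin. With the replicate block, 28 pairs were higher and 16 lower, the gains being Egfr in K (0.47, adjusted p = 0.0897), Areg in M (2.07, adjusted p = 0.0924) and Erbb2 in H (−0.26, adjusted p = 0.0970). In that fit 9 members differed between lines in response and 9 in mono-culture. Libraries with line and replicate block, which count as replicates of the culture effect, gave 5 members higher and 3 lower across lines.

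None of the group differences that changed sign was called: with no filter, Egfr in coculture was 0.014, and as single clones or replicates were left out it ran from −0.33 to 0.18, Areg in coculture from −1.12 to 0.30 and Ereg in coculture from −0.58 to 0.55, Tgfa in mono-culture from −0.40 to 0.24, and the differences in response of Tgfa from −0.36 to 0.13, Erbb2 from −0.30 to 0.087 and Erbb3 from −0.46 to 0.54. Genes called between the groups numbered 0 in edgeR and 117 in DESeq2 in mono-culture, and 1 and 193 in coculture; the cause was not tested. Areg in M rested on 5 to 9 counts a library in mono-culture, where 3 counts over 4 libraries are 0.0467 CPM.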

Other observations

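The 5 ligands of Egfr also varied together among the libraries of one line and culture. After the mean of each of the 16 groups was removed, the log2 CPM of Areg over the 64 libraries had a correlation of 0.79 with Ereg, 0.73 with Tgfa, 0.59 with Btc and 0.59 with Hbegf. Ereg had one of 0.76 with Hbegf, 0.69 with Btc and 0.66 with Tgfa. The remaining pairs gave 0.57 for Btc and Tgfa, 0.53 for Hbegf and Tgfa and 0.44 for Hbegf and Btc. Nrg1, which binds Erbb3, was less tied to Areg (0.18), Ereg (0.17), Btc (−0.11) and Tgfa (0.08). Its coefficient with Hbegf was 0.42, near that of Hbegf with Btc. Egfr and Erbb2 varied with each other (0.57) and against Areg (−0.29 and −0.40). The libraries share their depth and scaling, so these coefficients are a description.

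The spread of a gene among libraries of one group differed widely between members. The pooled SD of log2 CPM was 0.91 for Areg, 0.54 for Ereg, 0.25 for Tgfa and 0.18 for Erbb2. In N mono-culture, the libraries numbered 3 and 4 held the higher values of Areg, Ereg, Hbegf, Btc and Tgfa. The libraries numbered 1 and 2 held the higher values of Erbb2, and all 4 lie on the same inferred sample sheet. Over the 8 lines, the levels of Nrg1 and Erbb2 had a correlation of −0.84 in mono-culture and −0.92 in coculture, and the responses of Erbb2 had one of 0.88 with those of Erbb3 and 0.81 with those of Egfr.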
